A study of Drosophila melanogaster with 4 samples.

Results

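The Hsp70 family of Drosophila melanogaster was followed here through every array spot whose gene symbol field read Hsp68, held a symbol beginning with Hsp70, or began with Hsc70. The rule used the platform annotation and no measured value, though it was chosen with earlier results of these data known. It found 24 of 44544 spots: 12 of 27648 on each array of the 12k design and 12 of 16896 on a pilot array of the 7k design. The 12k spots belonged to Hsp68, Hsc70-1, Hsc70-2, Hsc70-5 and a field shared by Hsp70Aa and Hsp70Ab, and were treated as 5 features, the shared field being 1 of them. The pilot spots belonged to Hsp68, Hsc70-1 and Hsc70-2. Of 12 genes so named in the RefSeq table, 6 were covered and the other 6 were not analysed here.

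All RNA came from whole adult males reared at 25 °C and used at an age of 6 to 7 days post-eclosion, and their strain was dp cn bw cl in every group. Cold-shocked males spent 2 h at 0 ± 0.5 °C and then recovered for 30 min at 25 °C, and co-reared controls stayed at 25 °C in the treatment vessel. Each of the 3 arrays of the 12k design compared 1 independent pair of such samples, with cold-shocked RNA in Cy5 and untreated RNA in Cy3, and the single pilot array carried the dyes the other way round. Each value is the authors' log ratio of both channels for 1 spot, read here as log2, and on the 12k design a ratio above 0 likely means a higher level in cold-shocked flies. All folds and ranks below are given in that direction. Were the ratio the other way round, each sign would turn, and the highest member would be the lowest.

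Hsp70 proteins are chaperones that bind unfolded stretches of other proteins and release them in a cycle driven by ATP. J-domain co-chaperones deliver clients and start ATP hydrolysis, and nucleotide exchange factors reset the cycle. In flies the Hsp70A and Hsp70B genes and Hsp68 are induced by heat through the transcription factor Hsf, whereas the cognate (Hsc70) genes are transcribed without stress. Hsp70Aa and Hsp70Ab are near-identical neighbours, so which of them, or of the other Hsp70 genes, bound the shared spots cannot be told apart. A ratio gives no transcript level, and in whole flies fewer cells of a type and less RNA per cell cannot be told apart.

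Hsp68 had the highest mean ratio of the family, and it differed widely between the 3 pairs of samples. Its 2 spots stood at log2 ratios of 1.77 and 1.88 on array 1, 0.56 and 0.91 on array 2, and 0.31 and −0.44 on array 3. Array 1 was thus high at both spots, array 2 intermediate, and array 3 gave spots on either side of 0. Averaged over the spots, the Hsp68 log2 ratio was 1.82 on array 1, a level likely 3.54-fold higher in the cold-shocked channel, 0.73 on array 2, or 1.66-fold, and −0.07 on array 3. The mean was 0.83 ± 0.95 (SD, n = 3), or 1.78-fold (0.563-fold with the ratio turned), with a 95% interval from 0.976-fold to 3.24-fold.

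The limma test of this Hsp68 mean against 0 gave an unadjusted p of 0.0576 and a p of 0.853 after Benjamini-Hochberg adjustment over all 19262 features, so Hsp68 did not pass. No feature passed, a share of 0% called, and the smallest adjusted p was 0.853. Of the 19262 features 921 had an unadjusted p under 0.05. That is close to the share this threshold passes where no feature changes. Array 1 set much of the size: without it the Hsp68 mean was 0.33, and without array 3 it was 1.28. The exact sign-flip test on 3 arrays cannot go below a p of 0.25 and gave 0.5 for Hsp68.

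**Figure D1:**
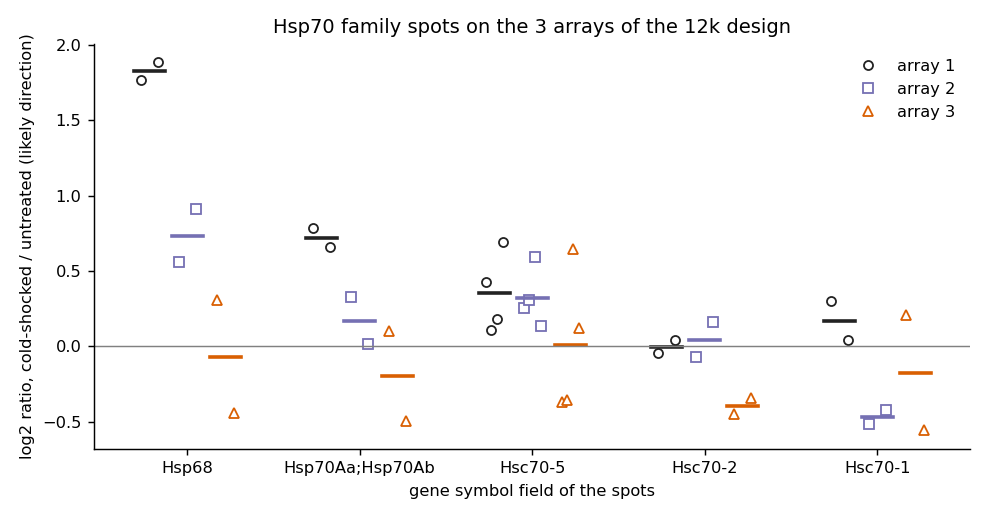
Log2 ratio of each Hsp70 family spot on the 3 arrays of the 12k design. Open symbols are spots, black circles for array 1, purple squares for array 2 and orange triangles for array 3, and short bars are the means of the spots of a feature on 1 array. Both Hsp68 spots on array 1, at 1.77 and 1.88, lie above all other family spots of any array, and on array 3 the Hsp68 spots fall on either side of 0.

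The shared spots, annotated to Hsp70Aa and Hsp70Ab of the main heat-inducible Hsp70, gave smaller ratios. Their log2 ratios were 0.78 and 0.66 on array 1, 0.33 and 0.02 on array 2, and 0.10 and −0.49 on array 3. As for Hsp68, array 1 was the highest and array 3 the lowest. The mean was 0.23 ± 0.46 (SD, n = 3), or 1.17-fold, with a 95% interval from 0.766-fold to 1.80-fold and a limma adjusted p of 0.892. It was −0.01 without array 1, so that its positive mean rests on that array.

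Hsc70-5, which encodes the mitochondrial Hsp70, was the one feature of the family above 0 on all 3 arrays. The array 3 value was close to 0, and with the array median or the median of the surrounding spots subtracted it was −0.02 or −0.0035, so that 0 of the 5 features were then above 0 on all 3 arrays. Its feature values as deposited were 0.35, 0.32 and 0.01, with a mean of 0.23 ± 0.19 (SD, n = 3) and a limma adjusted p of 0.877. Its interval ran from 0.809-fold to 1.70-fold. It was printed at 2 places, and these disagreed on array 3. The pair of spots 16243 and 16244 averaged 0.44, 0.37 and 0.38 on arrays 1 to 3, while the pair 14829 and 14830 averaged 0.27, 0.28 and −0.36. The first pair was therefore even across the arrays and the second was not. A share of 12.6% of all features was above 0 on all 3 arrays, against 1 of the 5 family features, and 15.1% were below 0 on all 3, against 0 of the 5.

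The cognate genes Hsc70-2 and Hsc70-1 had means just below 0. The Hsc70-2 spots stood at −0.04 and 0.04 on array 1, −0.07 and 0.16 on array 2, and −0.45 and −0.34 on array 3. Only array 3 took both spots clearly below 0, and without it the mean of −0.12 ± 0.24 (SD, n = 3) became 0.02. The Hsc70-1 spots stood at 0.30 and 0.04 on array 1, −0.52 and −0.42 on array 2, and 0.21 and −0.56 on array 3. Here array 2 was the lowest, and without it the mean of −0.16 ± 0.32 (SD, n = 3) became −0.002. Limma adjusted p was 0.934 for Hsc70-2 and 0.919 for Hsc70-1. Their 95% intervals, from 0.631-fold to 1.34-fold and from 0.605-fold to 1.33-fold, leave room for changes of that size in either direction.

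Among all features, Hsp68 lay at the 99.7 percentile on array 1, the 94.2 percentile on array 2 and the 42.6 percentile on array 3. Hsp70Aa/Hsp70Ab lay at the 97.4, 62.7 and 33.3 percentiles. Hsp68 and Hsp70Aa/Hsp70Ab were past 1.5-fold higher on array 1, as were 4.71% of all features. On array 2 Hsp68 alone of the family was, against 9.77% of all features, and on array 3 none of the family was, against 14.1%. None of the 5 was past 1.5-fold higher on all 3 arrays, where 0.166% of all features were, and none had a higher ratio at an unadjusted p under 0.05, where 1.48% of all features did. Of the 5 means 3 were above 0, against 45.1% of all features, and the family median was 0.23 beside −0.04 over all features. Of the 19262 features 12430 were single unnamed spots, whereas family features average 2 or 4 spots. Shares and percentiles over all features are therefore not like for like throughout. Of the 6832 named fields 5 were past 1.5-fold higher on all 3 arrays, against 32 of the 19262 features.

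**Figure D2:**
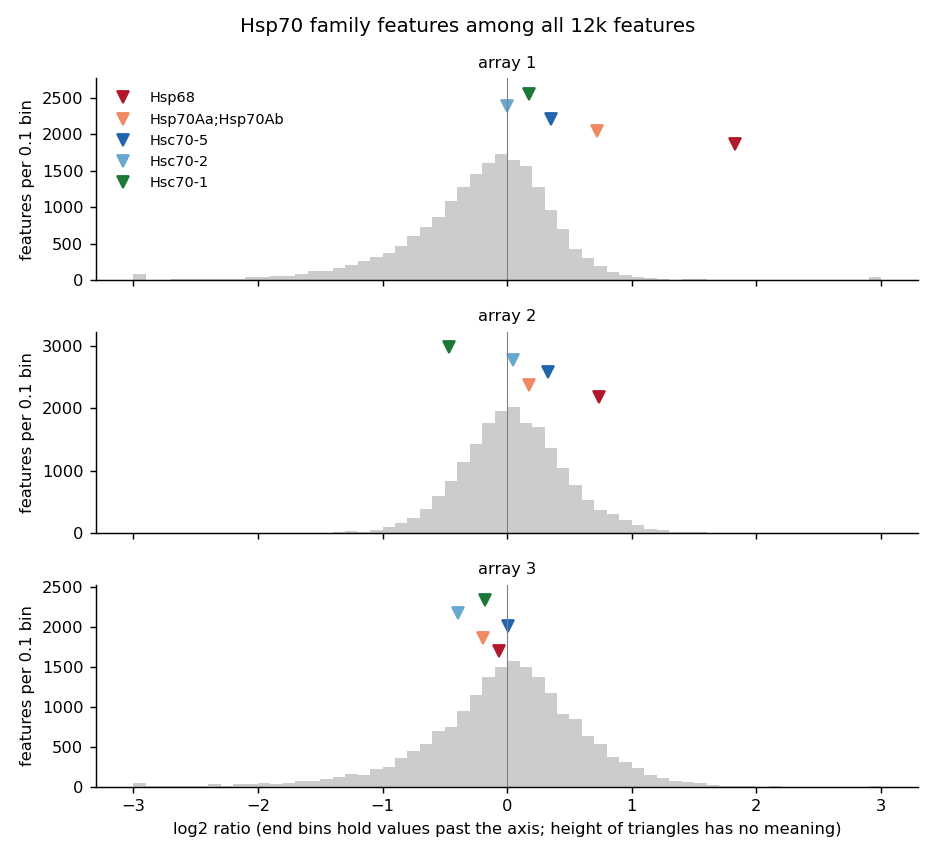
Distribution of log2 ratios over all 19262 features on each array of the 12k design, as counts per bin of 0.1 (grey bars), with the 5 Hsp70 family features as coloured triangles whose height has no meaning. Hsp68 sits in the upper tail on array 1, at 0.73 on array 2 and close to the middle on array 3.

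Within an array the members can be set against each other without the array's centre, though the medians of their surrounding spots still differ. Hsp68 was the highest of the 5 on arrays 1 and 2, and Hsc70-5 was the highest on array 3, with Hsp68 next. On array 1 all 10 other family spots lay under both Hsp68 spots, the highest of them at 0.78. On array 2 it was 9 of 10, and on array 3 it was 3 of 10. The Hsp68 ratio exceeded that of Hsp70Aa/Hsp70Ab by 1.10, 0.56 and 0.13 in log2 on arrays 1 to 3, a mean difference of 0.60 ± 0.49 (SD, n = 3). It exceeded Hsc70-1 by 1.65, 1.203 and 0.11, and Hsc70-2 by 1.83, 0.69 and 0.33. Against Hsc70-5 the differences were 1.47, 0.41 and −0.08, so the sign was not the same on all 3 arrays.

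The most even of these differences, picked out for its small SD after the values were seen, was between cognate genes. Hsc70-5 exceeded Hsc70-2 by 0.36, 0.28 and 0.41, a mean of 0.35 ± 0.06 (SD, n = 3). This evenness holds for the average of the 2 printed places of Hsc70-5, not for each. On array 3 these averaged −0.36 and 0.38, beside −0.40 for Hsc70-2. In order of their means, Hsp70Aa/Hsp70Ab and Hsc70-5 differed by 0.0025 ± 0.32 and Hsc70-2 and Hsc70-1 by 0.04 ± 0.41 (SD, n = 3), both far less than their spread. Of the 10 differences among the 5 features, 6 had 1 sign on all 3 arrays as deposited. With the medians of the surrounding spots subtracted, Hsc70-1 stood at 0.013 on array 3, above Hsp68 at −0.044 and Hsc70-5 at −0.0035. Hsp68 and Hsc70-5 then no longer exceeded Hsc70-1 on all 3 arrays. These differences are given as a description: the exact sign-flip test cannot go below a p of 0.25 with 3 arrays, which is its value for each of the 6.

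Neighbouring spots give only a part of the technical spread behind these values. On array 3 the Hsc70-5 spots 14829 and 14830 differed by 0.014, while the 2 Hsc70-5 pairs averaged −0.36 and 0.38. An odd spot and the next even one carried 1 gene field in all 7609 named pairs of the 12k design. Over all pairs of the design, their median difference was 0.326, 0.341 and 0.394 on arrays 1 to 3. Of the 6 family pairs, 1 exceeded that median on array 1, 2 did on array 2 and 4 did on array 3. The Hsp68 pair differed by 0.117 on array 1, 0.349 on array 2 and 0.749 on array 3, so its spots disagreed most on array 3. The median of the surrounding spots lay near −0.17 around Hsp68 on array 1, 0.10 on array 2 and −0.03 or closer to 0 on array 3. With it subtracted, Hsp68 stood at 1.99, 0.64 and −0.04 on arrays 1 to 3, and Hsp70Aa/Hsp70Ab at 0.74, 0.08 and −0.43.

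**Figure D3:**
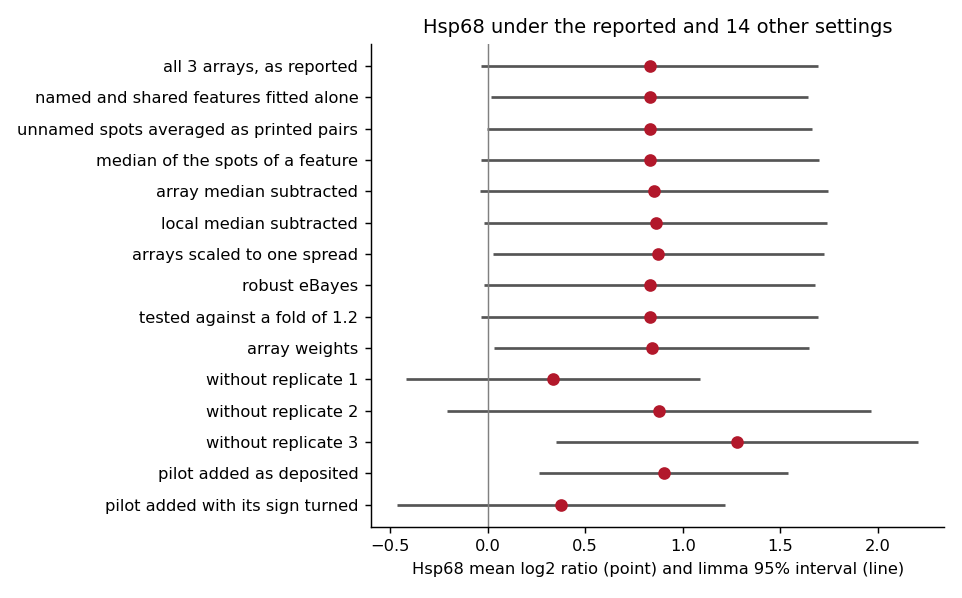
Mean log2 ratio of Hsp68 (points) with its limma 95% interval (lines) as reported and under 14 other settings. All points lie above 0, from 0.33 without replicate 1 to 1.28 without replicate 3, and most intervals, though not all, include 0.

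On the pilot array Hsp68 stood apart from Hsc70-1 and Hsc70-2, with a sign that cannot be read as higher or lower in cold-shocked flies. There the dyes were reversed and the files do not state which channel was divided by which. Relative to the array median of 0.40, the 2 Hsp68 spots stood at 0.84 and 1.27, a mean of 1.05, or 2.08-fold. Among all pilot spots they lay at the 85.5 and 96.3 percentiles. The 6 Hsc70-1 spots ran from −0.29 to 0.60, with 3 above the median, and the 4 Hsc70-2 spots ran from −0.68 to −0.12. All 10 Hsc70 spots lay under both Hsp68 spots, and all would lie above them if the ratio ran the other way. The means were 0.06 for Hsc70-1 and −0.45 for Hsc70-2. No replicate of the pilot was analysed, so there is no test.

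Printed pairs of 1 gene also differed on the pilot. The 3 Hsc70-1 pairs averaged 0.02, 0.39 and −0.23, and the 2 Hsc70-2 pairs averaged −0.25 and −0.65. Of all pilot spots 23.9% were past 1.5-fold above the median and 19% past it below, against 3 and 2 of the 12 family spots, shares close to the background. The surrounding spots had medians of 0.81 near Hsp68 and from 0.26 to 1.199 near the Hsc70 spots. With these subtracted, Hsp68 averaged 0.64, Hsc70-1 −0.37 and Hsc70-2 −0.44, and all 10 Hsc70 spots lay below their surroundings.

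**Figure D4:**
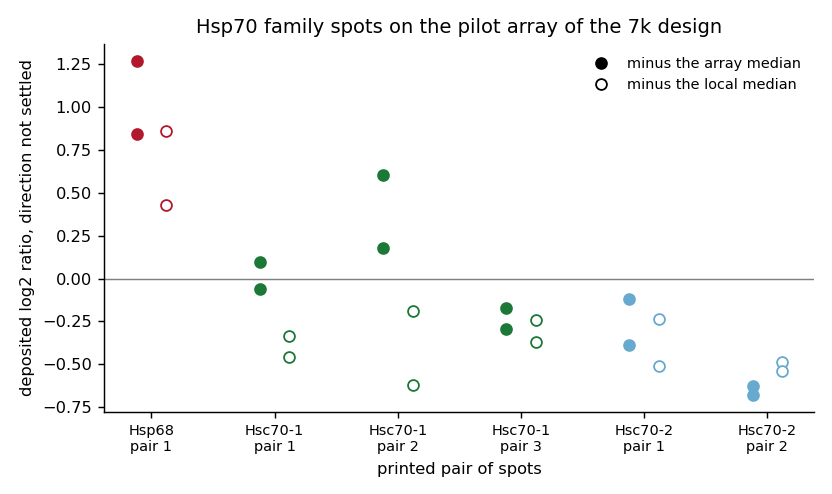
Deposited log2 ratios of the 12 Hsp70 family spots on the pilot array, by printed pair, relative to the array median (filled) or to the median of the surrounding spots (open). The direction of the ratio is not settled. Both Hsp68 spots lie above all 10 Hsc70 spots on either scale, while the Hsc70-1 pairs move below 0 when their surroundings are subtracted.

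The wider Hsp70 machinery was read through lists of partner genes, of which 37 of 51 were measured on the 12k design. These lists were chosen with earlier results of these data known, so their shares here and below are only a description. None of the 37 passed the limma test over all features. By their means 24 were above 0, or 64.9% beside 45.1% of all features, and 13 were below. On all 3 arrays 10 were above 0, which is 27.0% beside the 12.6% of all features given above, and 2 were below, where 15.1% of all features were. Their median of 0.07 compares with −0.04 over all features. Most of all features are single unnamed spots, whereas each partner gene averages its spots, so these shares are not like for like. The shares above 0 among named features alone are not given here. Hsf, the heat shock transcription factor, was above 0 on all 3 arrays, at 0.08, 0.19 and 0.22, with a mean of 0.17 ± 0.08 (SD, n = 3). This came from 1 of its 2 spots, which stood at 0.17, 0.33 and 0.47, while the other stood at −0.01, 0.06 and −0.02.

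Nucleotide exchange and adaptor co-chaperones had 6 of 8 measured members with means above 0, or 75% beside 45.1% of all features. The BAG-domain gene stv stood at 0.68, 0.55 and 0.42 on arrays 1 to 3, a mean of 0.55 ± 0.13 (SD, n = 3). The TPR adaptor gene Sgt had a mean of 0.48 ± 0.22 and CG10973 one of 0.42 ± 0.25 (SD, n = 3). Averaged over their spots, these 3 genes were above 0 on all 3 arrays, or 37.5% of the 8 beside 12.6% of all features. None of the 8 was below on all 3. Spots of 1 gene differed within an array by up to 1.03 for stv, 1.26 for Sgt and 0.57 for CG10973. The stv spot 15729 stood at −0.01 on array 3. For Sgt, at 0.60, 0.22 and 0.61, such a gap puts 1 of its 2 spots below 0 on an array.

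J-domain genes were spread to both sides, with 14 of 21 means above 0, or 66.7% beside 45.1% of all features. On all 3 arrays 5 were above 0, or 23.8% beside 12.6%, and 2 were below. Those above 0 on all 3 arrays were shv at 0.52, DnaJ-60 at 0.41, P58IPK at 0.35, mrj at 0.34 and Csp at 0.30, where P58IPK acts in the endoplasmic reticulum and Csp on synaptic vesicles. Those below 0 on all 3 arrays were the auxilin gene aux at −0.49, which acts in clathrin uncoating, and CG2887 at −0.46. Among these named genes, spots of 1 gene differed within an array by up to 0.23 for mrj and 1.10 for CG2887, with the others between. DnaJ-1, a heat-inducible partner of Hsp70, averaged −0.16 ± 0.36 (SD, n = 3) over 8 printed pairs that disagreed. Its spots 27257 and 27258, picked out after their values were seen, stood between 0.96 and 1.46 on all 3 arrays, whereas 5 other DnaJ-1 spots were below 0 on all 3.

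Of the small heat shock and chaperonin genes 4 of 12 were measured. Hsp26, a small heat shock protein, had a mean of 0.82 ± 0.62 (SD, n = 3), close to that of Hsp68, with 1.37, 0.93 and 0.15 on arrays 1 to 3. It was the one of the 4 with feature values of 1 sign on all 3 arrays. On array 3 its 2 spots fell on either side of 0, at 0.75 and −0.45, as those of Hsp68 did. Hsp60C averaged 0.28, while l(2)efl and Hsp60D averaged −0.36 and −0.37. In the Hsp90 group 3 of 6 genes were measured, Trap1 at 0.07, Gp93 at −0.0005 and p23 at −0.44, with mixed signs each, and Hsp83 was not analysed here.

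**Figure D5:**
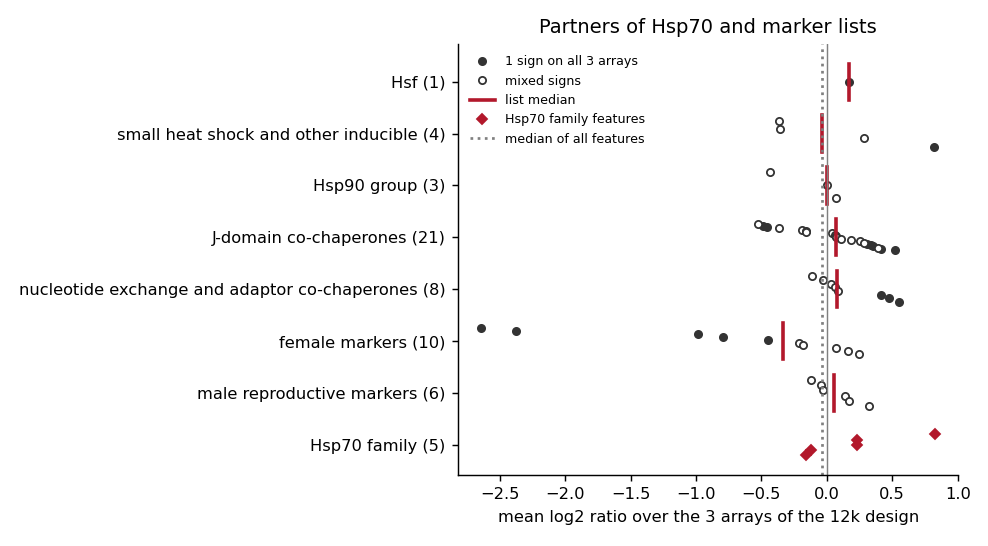
Mean log2 ratio over the 3 arrays of the 12k design for each measured gene of the partner lists, the marker lists and the 5 Hsp70 family features (diamonds). Filled circles had 1 sign on all 3 arrays, open circles did not, red bars are list medians and the dotted line is the median of all features at −0.04. Hsp26 and Hsp68 lie farthest right, and the female markers reach farthest left.

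The genes whose 3 array values came closest to those of Hsp68, by Euclidean distance among 6792 other single-symbol genes, were PGAP5 at 0.328, Smyd4-2 at 0.460 and CG9162 at 0.516. PGAP5 had log2 ratios of 1.77, 0.42 and −0.02 on arrays 1 to 3. Hsp26 came next, at a distance of 0.536. Hsp70Aa/Hsp70Ab, at 1.25, had 66 genes nearer to Hsp68 than itself, and Hsc70-5, at 1.53, had 302. With 3 arrays such likeness is only a description.

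Of 24 markers of female flies 10 were measured, and none passed the limma test. On each array 7 of the 10 were below 0, not always the same ones, against 61.4%, 45.7% and 48.1% of all features on arrays 1 to 3, and 5 of the 10 were below 0 on all 3 arrays, against 15.1%. Their medians were −0.74, −0.37 and −0.24 on arrays 1 to 3, and 3 had means above 0. The yolk protein gene Yp1 stood at −4.22, −2.32 and −1.40, Yp2 at −2.06, −0.25 and −0.07, and Yp3 at −1.78, −0.80 and −0.38. These 3 were largest in size on array 1, where Hsp68 was highest, and smallest on array 3. Other markers were not ordered so: the germline thioredoxin gene dhd, named after its values were seen, stood at −2.60, −2.78 and −1.75, and swa, grk and otu were above 0 on array 1, at 0.28, 0.64 and 0.27. The part of these markers in the Hsp68 values was not tested. Of 21 male reproductive markers 6 were measured, with a median of 0.06 and none of 1 sign on all 3 arrays. Cold-shocked RNA was in Cy5 on every 12k array, so dye and cold shock cannot be told apart on that design.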

How the data were processed

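Each deposited value is the authors' log ratio of both channels of a spot, treated here as log2, and per the labels it came from normalized data. The sources used here do not give the log base, the direction of the ratio, the image analysis or the normalization method. The base was taken as log2 because the lowest value, −14.6, lies past the natural log of a 16-bit range, 11.1. Intensities of the channels were not used here, which leaves the signal over background unknown, and the number of arrays limits the precision.

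No value was missing. Spots were named by the platform annotation: on the 12k design 15116 had 1 symbol, 102 several and 12430 none, and on the 7k design 5666, 152 and 11078. Spots with one gene symbol field, shared fields included, were averaged within an array, and unnamed spots stayed single, which gave 19262 features. The mean over the 3 arrays was tested against 0 in both directions with lmFit and eBayes (limma 3.58.1, R 4.3.3), and p-values were adjusted by Benjamini-Hochberg over all features, with a threshold of 0.05. The code of the fit was run on simulated data with independent normal noise, which does not show its power on the deposited values. Local medians used 50 spots on each side in spot order.

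The members and lists were chosen with earlier results of these data known. By rule the text names all family spots, listed partners with 1 sign on all 3 arrays, Hsf, Hsp26, DnaJ-1 and stv, the 3 genes nearest to Hsp68, and Yp1 to Yp3. dhd, swa, grk, otu, Hsp60C, Hsp60D, l(2)efl, Trap1, Gp93, p23 and the partner genes of the pilot were added after their values were seen.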

Additional observations from a re-analysis of the deposited data

How the results depend on the processing

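No feature passed the limma test under any of the 15 alternatives run, and no family feature did. Accepting features with 2 arrays was not run, as all values were present. No paired analysis was possible because every ratio already compares a pair within 1 array. The Hsp68 mean stayed above 0 in all 14 settings of the feature fit, with an unadjusted p under 0.05 in 5 of them: 0.0464 for named and shared features alone, 0.0450 with arrays scaled, 0.0433 with array weights, 0.0170 without replicate 3 and 0.00954 with the pilot added as deposited. The limma unadjusted p was 0.346 with the pilot added and turned, at a mean of 0.375, and 0.338 without replicate 1. The direction of the pilot is not settled, so neither of its signs is preferred. The Hsp68 adjusted p ran from 0.762 to 0.9998. Without 1 replicate the Hsp68 mean ranged from 0.333 to 1.28. Hsp70Aa/Hsp70Ab ranged from −0.0127 to 0.446 and Hsc70-2 from −0.199 to 0.0213, the latter reaching 0.0406 with the pilot added and turned. Hsc70-1 ranged from −0.322 to −0.0020. Read as natural log or log10, the Hsp68 fold of 1.78 would be 2.29 or 6.76.

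The 285 features higher at an unadjusted p under 0.05 became 112 for named and shared features alone, 183 with printed pairs averaged, 500 with local medians subtracted, 75 against a fold of 1.2, 39 with the pilot as deposited, 45 with it turned, and 150 to 501 without 1 replicate. The 32 past 1.5-fold higher became 61 with every spot single, 5 for named and shared features, 11 with printed pairs, 168 past 1.3-fold, 2 past 2-fold, and 124 to 294 without 1 replicate. The family count of 0 ranged from 0 to 1 without 1 replicate, the 1 being Hsp68 without replicate 3. The 10 partner genes above 0 on all arrays ranged from 12 to 16 without 1 replicate, the 16 without replicate 3. A rule that asks for all arrays is easier to meet with 1 array fewer, for any feature. The matching share of all features above 0 is not given here, so this rise is not a result about the partner genes.

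On the pilot, Hsp68 was 1.46 as deposited, 0.643 with local medians subtracted and −1.05 turned. Hsc70-1 was 0.463, −0.368 and −0.0584, and Hsc70-2 was −0.0478 as deposited and 0.453 turned. At a fold of 2 the family spots past it were 1 above and 0 below. The cause of these differences was not tested.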

Other observations

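Partner genes on the pilot array, which belong to no comparison above because its direction is not settled, lay on both sides of the array median. Of 16 measured, 7 were above it and 9 below, with a median of −0.24. All DnaJ-1 spots stood above it, from 0.28 to 1.19, unlike on the 12k arrays, where the DnaJ-1 spots were split between both signs. Dpit47, an Hsp90 co-chaperone, stood at 1.25, the J-domain gene CG7130 at 1.04 and stv at 0.39. On the other side stood CG8531 at −1.26, Sgt at −1.09, p23 at −0.99 and Droj2 at −0.83. Local medians were not subtracted from these partner values. For Hsc70-1 on the same array, subtracting them moved the mean from 0.06 to −0.37. Averaged over its spots, Sgt was above 0 on all 3 arrays of the 12k design, and stv was as well.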
